A study of Mus musculus with 9 samples.

Results

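The chemokine ligands and receptors are described here in the right ventricle of mice injected with monocrotaline (MCT), across 3 groups of 3 mice. Every gene was taken whose symbol begins with Ccl, Cxcl, Cx3cl, Xcl, Ccr, Cxcr, Cx3cr or Xcr and a number, and which has a probe set annotated to it alone. This gave 52 of the 18820 genes measured in that way, 34 ligands and 18 receptors. Of the ligands 19 were of the CC and 13 of the CXC family, beside Cx3cl1 and Xcl1, and of the receptors 10 were of the CC and 6 of the CXC family, beside Cx3cr1 and Xcr1. The rule rests on symbols and annotation, and uses measured values only to take the brightest of several probe sets.

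Chemokines are small secreted proteins that draw leukocytes along a gradient, and most of them act through G protein-coupled receptors on the attracted cell. The families are named for the spacing of their first cysteines, and one receptor commonly binds several ligands. In the heart, ligands of Ccr2 recruit monocytes from the blood, ligands of Cxcr3 are induced by interferon gamma and attract activated T cells, and Cxcl12 acts through Cxcr4 on vessels and stem cells.

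RNA of the right ventricle, dissected from the left, of 9 female C57BL/6 mice was hybridised, 1 mouse to an array, to the Affymetrix mouse gene 1.1 ST design. Sham mice (620, 624 and 625) received saline and a standard diet, AIN-93M. MCT mice (640, 641 and 644) ate the same diet and received MCT, a plant alkaloid that injures the vessels of the lung after activation in the liver, under the skin at 600 mg/kg once a week for 8 weeks from an age of 10 weeks. MCT + NI mice (615, 617 and 619) had the same injections and a nutritional intervention, an isocaloric diet with more protein, leucine, oligosaccharides and fish oil. All mice, sham included, were 8 weeks old at the start and 10 weeks old at the first injection, and saline was given over the same 8 weeks. All groups ate their diet before the first injection, for 2 weeks by the labels and for 1 week by the methods. The methods describe the chosen samples as matched for disease severity, and no array came from a mouse that ate the NI diet without MCT. Values are the authors' log2 intensities, and the mice of a group are always listed in the order of the numbers above. Differences between group means are log2 fold changes from a limma model of the 3 group means, whose residual spread was estimated from all mice, and adjusted p-values are Benjamini-Hochberg values over all 18820 genes. A gene is said to have risen or fallen where the adjusted p is under 0.05. The small number of arrays, 3 in each group, limits the precision.

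The tissue label was checked against markers. The mean of 9 ventricular cardiomyocyte markers lay between 11.95 and 12.07 in all mice. The mean of 6 atrial markers was 10.17, 11.05 and 10.95 in sham mice, 5.13, 5.50 and 10.69 in MCT mice and 9.16, 6.01 and 5.24 in MCT + NI mice. MCT mouse 644 and MCT + NI mouse 615 thus stood with the sham mice in atrial transcripts and apart from the other mice of their groups. The mean of 5 markers of lymph node or thymus stroma was 2.80 to 2.95, each marker below the median row of the table, whose mean log2 value was 4.76. Of the chemokine genes 20 had a mean at or above this median row (17 ligands and 3 receptors) and 32 below it, and 57.6% of all genes tested lay at or above it. The 3 receptors were Ccr2, Cx3cr1 and Cxcr4. Exact values repeat between arrays, at dim and at bright levels. Of the chemokine genes 26 of the 32 dim and 5 of the 20 bright ones had exactly the same value in at least 2 mice. The same held for 64.0% of all genes. In whole tissue a lower value from fewer cells of a type and one from less RNA per cell cannot be told apart.

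Between MCT and sham mice 3 chemokine genes rose, Ccl9, Ccl6 and Ccl8, and 1 fell, Ccl24, all of them CC ligands. These 4 of 52 stood against 6.26% of all genes tested, the 3 higher against 4.65% and the 1 lower against 1.61%. At an unadjusted p under 0.05 there were 15 chemokine genes (19.7% of all genes), 11 higher (10.6% of all genes) and 4 lower (9.14%). The values of MCT and sham mice did not overlap for 14 genes (21.9% of all genes), 11 of them higher (11.7%) and 3 lower (10.2%). The median difference was 0.08 over the 52 genes and -0.02 over all genes. It was 0.46 over the 20 brighter genes, of which 19 had a difference above 0, and 0.02 over the 32 dim ones. Among all genes 44.9% had a difference above 0, and among those at or above the median row 48.6%. The heat map of all chemokine genes shows the higher values of the MCT and MCT + NI mice in the upper rows, and the lower values of Ccl24 and Cxcl13 in the bottom rows of the ligands.

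**Figure D1:**
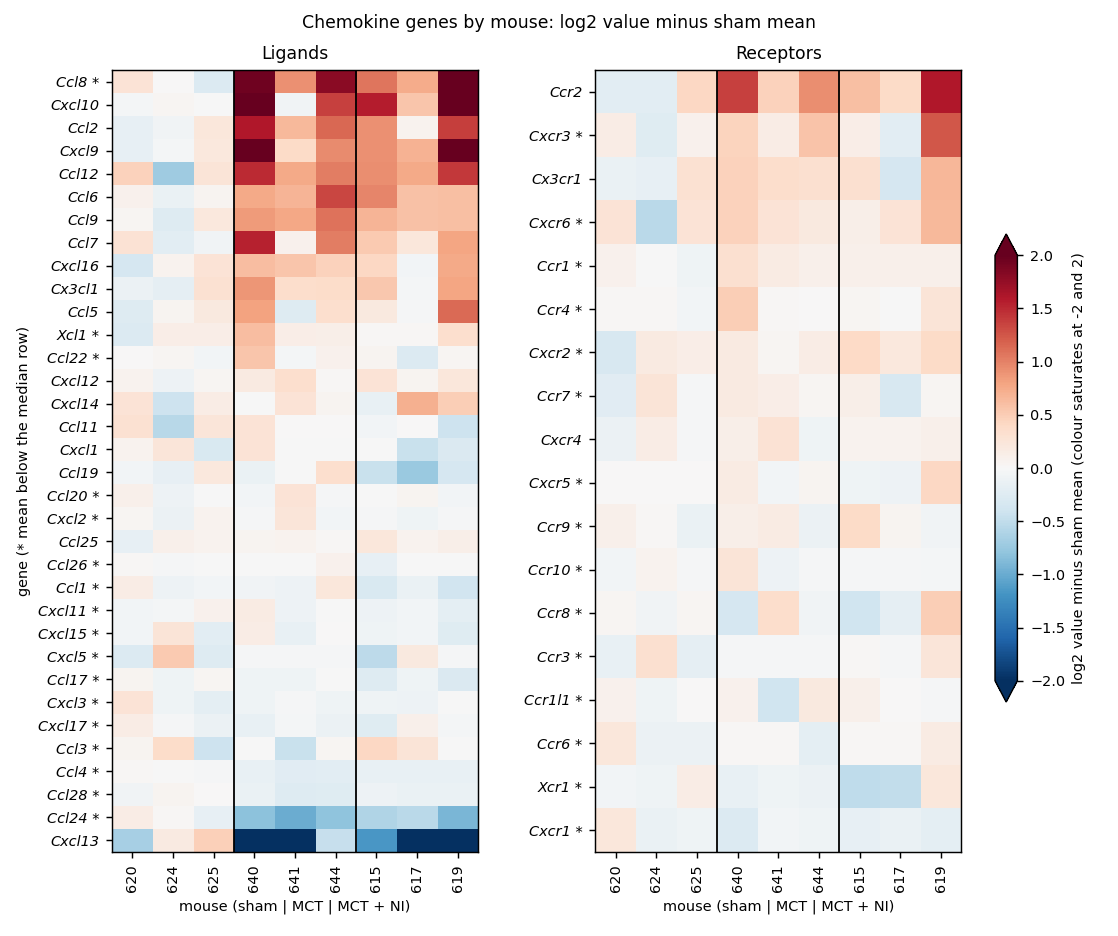
Heat map of the 52 chemokine genes, ligands on the left and receptors on the right, with 1 column per mouse, grouped as sham, MCT and MCT + NI. Colour gives the log2 value minus the mean of the 3 sham mice, saturating at -2 and 2, genes are ordered by the difference between MCT and sham mice, and an asterisk marks the 32 genes whose mean lies below the median row. Ccl8 and Cxcl10 head the ligands and Ccr2 the receptors, and Cxcl13 is at the bottom, with MCT mouse 644 and MCT + NI mouse 615 closer to sham than the other injected mice.

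Ccl9 and Ccl6 are CC ligands of rodents that are made by myeloid cells and act on Ccr1. Ccl9 was 6.00, 5.71 and 6.18 in sham mice, 6.81, 6.74 and 7.04 in MCT mice and 6.64, 6.55 and 6.56 in MCT + NI mice. Every injected mouse lay above every sham mouse, and the 3 MCT + NI mice lay below the 3 MCT mice. Ccl9 rose by 0.90 in MCT mice (standard error 0.12, 1.87-fold, limma adjusted p = 0.00262), and it was higher by 0.62 in MCT + NI than in sham mice (adjusted p = 0.0172). From MCT to MCT + NI it differed by -0.28 (95% interval -0.56 to -0.01), with an unadjusted limma p of 0.0422 and an adjusted p of 1. The call against sham was kept in all alternatives for MCT mice. For MCT + NI mice it was lost without MCT + NI mouse 615 (adjusted p = 0.0712), without MCT + NI mouse 619 (0.0623) and without both MCT mouse 644 and MCT + NI mouse 615 (0.0699).

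Ccl6 was 6.14, 5.93 and 6.12 in sham mice, 6.83, 6.75 and 7.41 in MCT mice and 7.04, 6.65 and 6.66 in MCT + NI mice. The injected mice again lay above all sham mice, whereas the groups with and without NI overlapped. Ccl6 rose by 0.93 in MCT mice (standard error 0.18, 1.91-fold, limma adjusted p = 0.0149) and by 0.72 in MCT + NI mice (adjusted p = 0.0456), and the MCT + NI mean differed from the MCT mean by -0.21 (-0.61 to 0.19). Without sham mouse 624 the limma adjusted p for MCT mice was 0.0633. For MCT + NI mice the call was lost in 10 of 20 alternatives. Among these, leaving out any single mouse other than MCT mouse 644 gave an adjusted p between 0.0504 and 0.149. In each injected group Ccl6 was highest in the mouse with high atrial markers, MCT mouse 644 and MCT + NI mouse 615. With the atrial marker mean as a covariate the differences from sham were 1.32 in MCT mice (limma adjusted p = 0.00178) and 1.14 in MCT + NI mice (0.00419). Ccr1, the receptor of both ligands, was dim throughout, with 2.88, 2.79 and 2.72 in sham mice, 3.12, 2.96 and 2.89 in MCT mice and 1 value, 2.89, in all MCT + NI mice. The MCT and sham values of Ccr1 did not overlap, by a difference of 0.19 with an adjusted p of 0.207.

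Ccl8, which in the mouse acts on Ccr8, had the largest difference of the genes that rose. It was 3.65, 3.39 and 3.10 in sham mice, 5.32, 4.30 and 5.18 in MCT mice and 4.45, 4.12 and 5.43 in MCT + NI mice. The lowest injected mouse, MCT + NI mouse 617, lay above the highest sham mouse, and the sham values and those of 3 injected mice lay below the median row. Ccl8 rose by 1.55 in MCT mice (standard error 0.36, 2.93-fold, limma adjusted p = 0.0376), while in MCT + NI mice it was higher than in sham mice by 1.29 (0.47 to 2.10) with an adjusted p of 0.0770. With NI the mean was different from that of MCT mice by -0.27 (-1.08 to 0.55). The call rested on most of the single mice: without sham mouse 620, 624 or 625, MCT mouse 640 or 644, or MCT + NI mouse 615 the adjusted p was 0.0607 to 0.140. It was also lost with the atrial marker mean as a covariate (difference 1.51, limma adjusted p = 0.186), without both MCT mouse 644 and MCT + NI mouse 615 (0.160) and with all rows of the table (0.0893). Its receptor Ccr8 was dim, between 2.28 and 3.17 in the 9 mice, and differed by -0.02 between MCT and sham mice.

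Ccl24, also called eotaxin-2, attracts eosinophils through Ccr3. Its value was 5.37, 5.25 and 5.06 in sham mice, 4.41, 4.24 and 4.42 in MCT mice and 4.63, 4.69 and 4.31 in MCT + NI mice. All injected mice lay below all sham mice, and the injected groups overlapped. Ccl24 fell by 0.87 in MCT mice (standard error 0.12, 0.547-fold, limma adjusted p = 0.00347) and by 0.68 in MCT + NI mice (adjusted p = 0.0118), with 0.19 (-0.09 to 0.47) between the injected groups. Its mean of 4.71 lay just below the median row, so that a filter there removes it. With the atrial marker mean as a covariate the fall in MCT + NI mice was 0.59 with an adjusted p of 0.152. Ccr3 was dim, 2.69 to 3.19 in sham mice and 1 value, 2.84, in all MCT mice. Of 8 markers of mast cells and eosinophils 7 were below the median row, Siglecf, Epx and Prg2 of eosinophils among them, and the mean of the list was 3.97 to 4.13 in sham, 3.83 to 4.22 in MCT and 3.85 to 4.35 in MCT + NI mice.

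**Figure D2:**
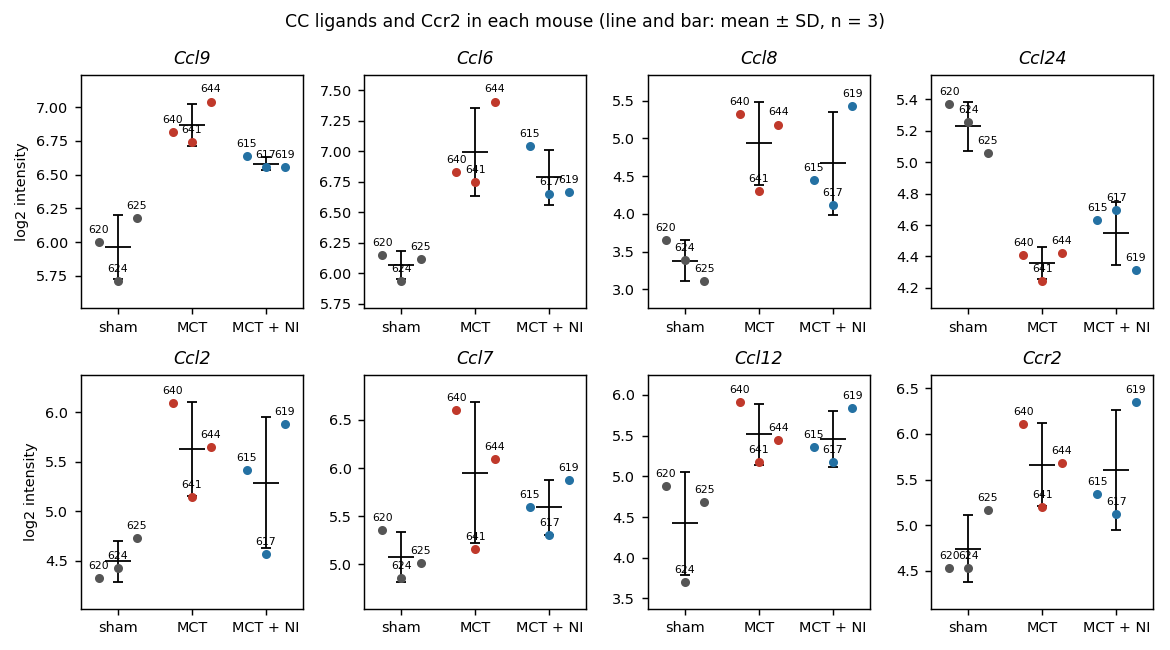
Log2 intensity of 7 CC ligands and of Ccr2 in each of the 9 mice, with the mouse number above each point and the mean ± SD (n = 3) of each group as a line and bar; each panel has its own axis, which does not start at 0. Ccl9, Ccl6, Ccl8 and Ccl12 are higher and Ccl24 is lower in all 6 injected mice than in all 3 sham mice. Ccl2, Ccl7 and Ccr2 of single injected mice reach into the sham range.

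The start regions of the ligands that rose are shown because Ccl9 and Ccl6 lie next to each other on chromosome 11 and moved together, and Ccl8 lies in a second run of CC ligands. The sequences are the 250 bases before the gene's start in RefSeq, build GRCm38.p6, 5′ to 3′ on the gene's strand, in lower case, with letters in capitals where a motif was matched. No promoter of Ccl24 or Ccl2 was in the table used, which held 38 of the 52 genes.
Ccl9, chr11:83578637-83578886, minus strand: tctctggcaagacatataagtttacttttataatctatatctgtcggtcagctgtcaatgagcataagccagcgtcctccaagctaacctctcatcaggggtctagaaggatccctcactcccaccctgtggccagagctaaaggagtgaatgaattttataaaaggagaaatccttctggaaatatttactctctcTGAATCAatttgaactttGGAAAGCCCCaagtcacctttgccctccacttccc
Ccl6, chr11:83593088-83593337, minus strand: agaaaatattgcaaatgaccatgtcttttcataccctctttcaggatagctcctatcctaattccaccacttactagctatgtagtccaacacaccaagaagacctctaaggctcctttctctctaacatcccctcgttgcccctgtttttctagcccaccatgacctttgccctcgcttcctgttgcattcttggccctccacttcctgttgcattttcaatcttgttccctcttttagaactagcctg
Ccl8, chr11:82114935-82115184, plus strand: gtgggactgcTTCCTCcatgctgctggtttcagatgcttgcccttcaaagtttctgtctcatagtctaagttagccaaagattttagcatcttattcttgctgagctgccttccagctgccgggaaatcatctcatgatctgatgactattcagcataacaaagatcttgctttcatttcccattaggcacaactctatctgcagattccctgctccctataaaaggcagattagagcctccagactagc
The motifs searched on both strands were the consensus of NF-kB, the interferon-stimulated response element (ISRE) as GAAANNGAAA, the AP-1 site as TGANTCA and the PU.1 site as GAGGAA. In Ccl9 the capitals mark an AP-1 match 53 to 47 bases and an NF-kB match on the opposite strand 35 to 26 bases before the start. In Ccl8 they mark a PU.1 match, on the opposite strand, 240 to 235 bases before the start, and Ccl6 had no match. Among 32851 promoters of the same length NF-kB matched in 7.25% and in 10 of the 38 chemokine genes, AP-1 in 6.75% and in 4, and PU.1 in 23.3% and in 11. A match describes letters only, and no binding was measured.

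In the RefSeq annotation 14 of the 52 genes lie on chromosome 11, and 2 runs there hold chemokine genes with no other protein-coding gene between them. In the run Ccl2, Ccl7, Ccl11, Ccl12, Ccl8 and Ccl1, the differences between MCT and sham mice were, in that order, 1.13, 0.88, 0.09, 1.09, 1.55 and 0.02. Along the run Ccl5, Ccl9, Ccl6, Ccl3 and Ccl4 they were 0.29, 0.90, 0.93, -0.14 and -0.20. Neighbouring genes thus differed from 0.02 to 1.55 in the first run and from -0.20 to 0.93 in the second. Ccl11, an eotaxin like Ccl24, was 5.67, 4.80 and 5.60 in sham, 5.63, 5.36 and 5.36 in MCT and 5.30, 5.36 and 4.94 in MCT + NI mice, with overlap of all groups.

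Ccl2, Ccl7 and Ccl12 draw monocytes through Ccr2, the receptor by which they leave the marrow and enter inflamed tissue. Ccl2 was 4.33, 4.43 and 4.73 in sham mice, 6.09, 5.15 and 5.65 in MCT mice and 5.41, 4.57 and 5.88 in MCT + NI mice. Ccl12 was 4.88, 3.70 and 4.69 in sham, 5.91, 5.17 and 5.45 in MCT and 5.35, 5.18 and 5.84 in MCT + NI mice. For both ligands every MCT mouse lay above every sham mouse. For Ccl12 all MCT + NI mice did so too, whereas MCT + NI mouse 617 had a Ccl2 value within the sham range. Between MCT + NI and sham mice the differences were 1.03 for Ccl12 and 0.79 for Ccl2 (limma adjusted p = 0.104 and 0.229). The differences between MCT and sham mice, 1.13 for Ccl2 (0.39 to 1.88) and 1.09 for Ccl12 (0.37 to 1.81), had limma adjusted p-values of 0.0861 and 0.0870. Without MCT + NI mouse 617, which enters the shared estimate of spread, Ccl2 passed, with an adjusted p of 0.0323.

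Ccl7 was 5.36, 4.86 and 5.01 in sham mice, 6.61, 5.16 and 6.09 in MCT mice and 5.59, 5.31 and 5.87 in MCT + NI mice. MCT mouse 641 lay within the sham range, and the difference of 0.88 had a limma adjusted p of 0.173, which was 0.0223 without that mouse. The receptor Ccr2 was 4.54, 4.53 and 5.16 in sham mice, 6.11, 5.20 and 5.68 in MCT mice and 5.35, 5.12 and 6.35 in MCT + NI mice. The MCT mice lay above the sham mice, by a difference of 0.92 (0.14 to 1.70) with an adjusted p of 0.178, and MCT + NI mouse 617 overlapped with the sham mice. Against MCT alone, the differences with NI were -0.34 for Ccl2 (-1.09 to 0.40), -0.36 for Ccl7 (-1.10 to 0.37), -0.06 for Ccl12 (-0.78 to 0.66) and -0.06 for Ccr2 (-0.84 to 0.72).

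Markers of macrophages also differed between these groups. Of 15 macrophage markers 4 rose and 1 fell in MCT against sham mice, and at an unadjusted p under 0.05 there were 10 higher and 2 lower, with a median difference of 0.43. The mean of the list was 6.56 to 6.74 in sham mice, 6.75 to 7.09 in MCT mice and 6.69 to 7.04 in MCT + NI mice, and none of the markers was dim. Those named by p were Mertk, a receptor for apoptotic cells (0.69, limma adjusted p = 0.00331), the lysozyme gene Lyz2 (0.70, 0.0184), the lysosomal Cd68 (0.71, 0.0256) and Cd163, the haemoglobin scavenger receptor, which fell (-1.20, 0.00948). Of 6 markers of resident cardiac macrophages 1 rose (Gas6, by 0.31), and at an unadjusted limma p under 0.05 there were 2 higher and 1 lower. Timd4 of this list was 5.22, 5.27 and 4.99 in sham, 4.87, 4.27 and 4.89 in MCT and 4.66, 4.48 and 4.54 in MCT + NI mice. The mean of the list was 6.49 to 6.54 in sham and 6.54 to 6.71 in MCT mice. Of 5 monocyte markers 4 were dim and 1 rose, Ace, which endothelium also expresses. All 9 neutrophil markers were dim, and 0 passed after adjustment in limma, with 1 at an unadjusted p under 0.05. The part of cell numbers in the chemokine differences was not tested.

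Cxcl9, Cxcl10 and Cxcl11 are the ligands of Cxcr3, the receptor of activated T and NK cells. Cxcl9 was 6.20, 6.31 and 6.57 in sham mice, 8.40, 6.74 and 7.31 in MCT mice and 7.27, 7.05 and 8.51 in MCT + NI mice. Cxcl10 was 4.43, 4.51 and 4.47 in sham mice, 6.88, 4.40 and 5.84 in MCT mice and 6.04, 5.02 and 6.75 in MCT + NI mice. MCT mouse 640 and MCT + NI mouse 619 had the highest values of both, MCT mouse 641 was at the sham level for Cxcl10, and all injected mice lay above the sham mice for Cxcl9. The SD of Cxcl10 was 0.04 in sham mice, against 1.24 in MCT and 0.87 in MCT + NI mice.

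Neither ligand passed after adjustment. Cxcl9 differed by 1.13 between MCT and sham mice (0.09 to 2.16, limma adjusted p = 0.214) and by 1.25 between MCT + NI and sham mice (0.22 to 2.28, adjusted p = 0.169). Cxcl10 differed by 1.24 (-0.10 to 2.58, adjusted p = 0.296) and by 1.47 (0.12 to 2.81, adjusted p = 0.215). Cxcl11 was dim, between 3.73 and 4.09 in all mice, with a difference of 0.02 between MCT and sham mice. Cxcr3 was 4.21, 3.81 and 4.14 in sham, 4.50, 4.21 and 4.62 in MCT and 4.19, 3.84 and 5.30 in MCT + NI mice, with its highest value in MCT + NI mouse 619 and overlap of all groups. Ccl5, a ligand made by T cells, was 5.26, 5.56 and 5.71 in sham, 6.32, 5.25 and 5.84 in MCT and 5.71, 5.49 and 6.64 in MCT + NI mice, highest in the same pair of injected mice.

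The mice that were high in Cxcl9 and Cxcl10 were also high in other genes of the interferon gamma response and in T cell markers. The mean of 10 genes of the interferon gamma axis, which include guanylate-binding proteins and Irf1, was 6.77, 6.73 and 6.85 in sham mice, 7.90, 6.69 and 7.08 in MCT mice and 7.06, 6.77 and 7.82 in MCT + NI mice. For 10 T cell markers the mean was 4.42, 4.25 and 4.43 in sham, 4.94, 4.63 and 4.70 in MCT and 4.55, 4.52 and 5.12 in MCT + NI mice, and 6 of these markers were dim. Of the interferon gamma genes 1 rose in MCT mice (Ifngr1, a receptor chain, by 0.40, limma adjusted p = 0.00312), and of the T cell markers 1 (Cd4, by 0.82, adjusted p = 0.0169). Ifng itself and Ciita were dim, as were all 8 NK cell markers. Among all 52 chemokine genes MCT mouse 640 had the highest value of its group in 26 and MCT + NI mouse 619 in 23, against 29% and 29.1% of all genes, tied highest values being counted for no mouse. Sham mouse 620 was likewise the highest of its group in 23, against 31.1% of all genes. Without MCT mouse 640 the number of chemokine genes with an unadjusted limma p under 0.05 for MCT against sham was 8, where it was 15 with all mice. Leaving out any other single mouse gave 10 to 16. After adjustment 3 chemokine genes passed without MCT mouse 640 and 4 with all mice, beside 676 and 1179 of all genes. For MCT + NI against sham the unadjusted number was 7 without MCT + NI mouse 619, as it was without sham mouse 620, and 15 with all mice. In the fits without a mouse the unadjusted number over all genes was not counted. These drops therefore cannot be read as particular to the chemokine genes. The part of the interferon gamma and T cell genes in these values was not tested.

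The promoters of both ligands are shown because the genes lie close together on chromosome 5 and their values were high in the same mice.
Cxcl9, chr5:92328080-92328329, minus strand: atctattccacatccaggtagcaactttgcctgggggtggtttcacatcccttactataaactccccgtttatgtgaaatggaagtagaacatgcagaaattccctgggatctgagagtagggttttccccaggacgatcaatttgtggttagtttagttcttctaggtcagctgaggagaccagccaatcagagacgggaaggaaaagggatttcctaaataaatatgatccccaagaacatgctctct
Cxcl10, chr5:92348890-92349139, minus strand: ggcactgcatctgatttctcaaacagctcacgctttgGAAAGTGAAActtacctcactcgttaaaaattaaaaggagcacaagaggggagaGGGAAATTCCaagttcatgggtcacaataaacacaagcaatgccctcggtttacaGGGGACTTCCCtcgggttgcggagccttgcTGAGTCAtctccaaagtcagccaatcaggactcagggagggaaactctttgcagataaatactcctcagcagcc
In Cxcl10 the capitals mark, in order, an ISRE match 213 to 204 bases before the start, an NF-kB match at 159 to 150 bases, a pair of NF-kB matches shifted by 1 base at 104 to 95 and 103 to 94 bases, and an AP-1 match at 74 to 68 bases. Cxcl9 had no match to these letters in its window. The ISRE letters occurred in 2.98% of all promoters and in 3 of the 38 chemokine genes.

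**Figure D3:**
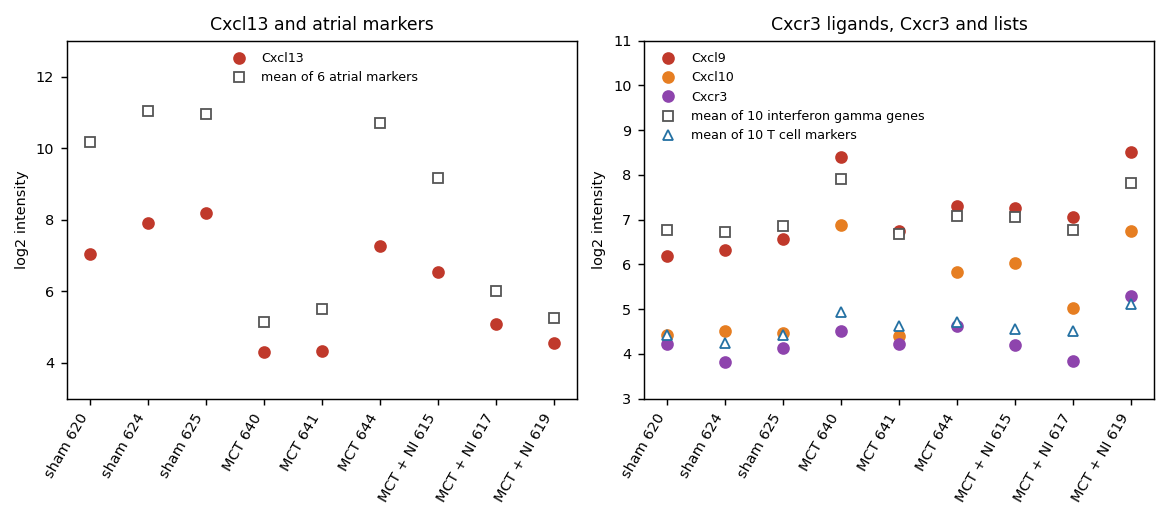
Log2 intensities in each mouse: on the left Cxcl13 (filled circles) and the mean of 6 atrial markers (open squares), on the right Cxcl9, Cxcl10 and Cxcr3 (filled circles), the mean of 10 interferon gamma genes (open squares) and the mean of 10 T cell markers (open triangles). Cxcl13 is high in the same mice as the atrial markers, the 3 sham mice, MCT mouse 644 and MCT + NI mouse 615, and the Cxcr3 ligands are highest in MCT mouse 640 and MCT + NI mouse 619.

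Cxcl13 attracts B cells through Cxcr5 and had the largest difference of all chemokine genes. It was 7.05, 7.90 and 8.20 in sham mice, 4.31, 4.32 and 7.26 in MCT mice and 6.54, 5.09 and 4.55 in MCT + NI mice. MCT mouse 644 overlapped with the sham mice, and the other MCT mice lay far below them. The difference was -2.42 in MCT (-4.24 to -0.59, limma adjusted p = 0.132) and -2.32 in MCT + NI mice (-4.15 to -0.49, adjusted p = 0.149), with 0.10 (-1.73 to 1.93) between them. The mice with high Cxcl13 were those with high atrial markers, as listed above, and all 6 atrial markers were lower in MCT than in sham mice at an unadjusted p under 0.05, with 0 after adjustment. Without MCT mouse 644 the difference between MCT and sham mice was -3.40 with an adjusted p of 0.0128, and with the atrial marker mean as a covariate it was -0.47 with an adjusted p of 0.379. Cxcr5 was dim, with 1 value, 2.56, in all sham mice and 2.47 to 2.97 in the injected mice, and all 7 B cell markers were dim.

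Cxcl16 and Cx3cl1 are made as membrane-bound ligands that proteases can shed, and bind Cxcr6 and Cx3cr1. Cxcl16 was 6.06, 6.47 and 6.67 in sham mice, 7.02, 6.96 and 6.86 in MCT mice and 6.82, 6.35 and 7.16 in MCT + NI mice. Cx3cl1 was 5.52, 5.46 and 5.94 in sham, 6.53, 6.00 and 6.01 in MCT and 6.18, 5.61 and 6.43 in MCT + NI mice. For both ligands the MCT mice lay above the sham mice, and MCT + NI mouse 617 lay within the sham range. The differences between MCT and sham mice were 0.54 for each, with limma adjusted p-values of 0.181 for Cxcl16 and 0.241 for Cx3cl1. Cx3cr1, carried by monocytes and resident macrophages, was 5.04, 5.004 and 5.48 in sham, 5.63, 5.53 and 5.49 in MCT and 5.50, 4.84 and 5.84 in MCT + NI mice, a difference of 0.38 (-0.15 to 0.90) between MCT and sham. Cxcr6 was dim and differed by 0.31 (-0.21 to 0.82). Of the sheddases Adam10 rose by 0.30 (adjusted p = 0.0289).

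Between MCT + NI and MCT mice 0 chemokine genes passed after adjustment in limma, as did 0% of all genes. At an unadjusted p under 0.05 there were 3, all lower in MCT + NI mice, Ccl19, Ccl1 and Ccl9, against 2.9% of all genes in either direction, 1.3% lower and 1.59% higher. The groups did not overlap for 4 genes, these 3 lower and Cxcr2 higher, against 6.08% of all genes in either direction, 2.96% lower and 3.11% higher. The median difference was -0.06 over the 52 genes and -0.0046 over all genes, and 42 of the 52 genes differed by less than 0.25. A difference above 0 was found in 19 of the 52 genes and in 47.6% of all genes. The comparisons of MCT with sham and of MCT + NI with MCT use the same MCT arrays.

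Ccl19 guides dendritic cells and naive T cells into lymphoid tissue through Ccr7. It was 5.74, 5.62 and 6.00 in sham mice, 5.66, 5.78 and 6.12 in MCT mice and 5.34, 5.05 and 5.45 in MCT + NI mice. All MCT + NI mice lay below all other mice. The difference was -0.57 against MCT mice (-0.92 to -0.23), with an unadjusted limma p of 0.00467 and an adjusted p of 1. It was -0.51 against sham mice (limma adjusted p = 0.0988), whereas MCT and sham mice differed by 0.07 (-0.28 to 0.42). Ccl19 has 5 probe sets, which gave differences of -0.57 to -0.58 from MCT to MCT + NI mice, 2 of them with identical values. All 5 lay close together within each mouse and read the same RNA, so their agreement is not independent support. Ccr7 was 4.46, 4.95 and 4.66 in sham, 4.86, 4.82 and 4.73 in MCT and 4.81, 4.36 and 4.73 in MCT + NI mice. Of 7 dendritic cell markers 6 were dim, and the list's mean lay between 3.82 and 3.99 in all mice.

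Ccl1, another ligand of Ccr8, was 3.70, 3.45 and 3.49 in sham, 3.48, 3.45 and 3.78 in MCT and 3.25, 3.41 and 3.16 in MCT + NI mice. Its MCT + NI values lay below all others, by -0.30 against MCT mice (unadjusted limma p of 0.0293, adjusted p of 1), and all its values were below the median row. Cxcr2, the receptor by which neutrophils follow Cxcl1, Cxcl2 and Cxcl5, was 2.16, 2.65 and 2.61 in sham, 2.65, 2.52 and 2.63 in MCT and 2.87, 2.68 and 2.86 in MCT + NI mice. The MCT + NI values were the highest, by 0.33 against sham (limma adjusted p = 0.199) and by 0.20 against MCT mice (-0.09 to 0.49), at a dim level. Cxcl1 was 5.50, 5.66 and 5.13 in sham, 5.70, 5.42 and 5.42 in MCT and 5.42, 4.98 and 5.13 in MCT + NI mice, a difference of -0.34 (-0.70 to 0.03) with NI, and Cxcl2 and Cxcl5 were dim.

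Between MCT + NI and sham mice 2 chemokine genes rose, Ccl9 and Ccl6, and 1 fell, Ccl24, with the values given above. These 3 stood against 6.26% of all genes, the 2 higher against 4.52% and the 1 lower against 1.75%. At an unadjusted p under 0.05 there were 15 chemokine genes (19.5% of all genes), 9 higher (10.2%) and 6 lower (9.37%), and values did not overlap for 14 (21% of all genes), 8 higher (10.7%) and 6 lower (10.3%). The difference was above 0 in 29 of the 52 genes and in 44.4% of all genes. Ccl17, a ligand of Ccr4 on helper T cells, was 3.73, 3.58 and 3.70 in sham, 3.58, 3.58 and 3.66 in MCT and 3.42, 3.58 and 3.38 in MCT + NI mice. It differed by -0.21 between MCT + NI and sham mice (limma adjusted p = 0.187) at values below the median row, and Ccr4 was dim as well. Both comparisons with sham use the same sham arrays, and the plot of differences sets the 3 comparisons side by side.

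**Figure D4:**
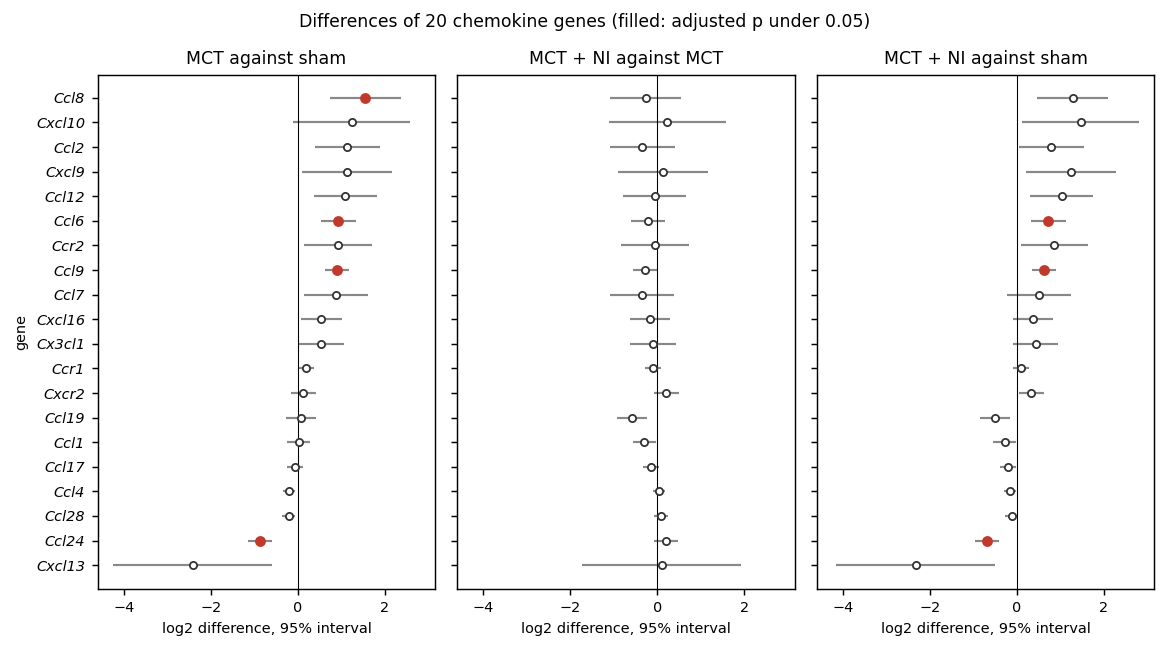
Log2 differences with 95% intervals of the 20 chemokine genes that had an unadjusted p under 0.05 in any comparison, one panel per comparison, ordered by the difference between MCT and sham mice. Filled points have an adjusted p under 0.05 over all genes: Ccl8, Ccl6, Ccl9 and Ccl24 for MCT against sham, none for MCT + NI against MCT, and Ccl6, Ccl9 and Ccl24 for MCT + NI against sham; the interval of Cxcl13 is the widest.

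A pair of dim ligands had small differences with little spread. Ccl4, a ligand of macrophages and T cells, was 4.87, 4.84 and 4.83 in sham and 4.70, 4.62 and 4.63 in MCT mice, and all MCT + NI mice had 1 value, 4.70. Ccl28, a mucosal ligand of Ccr10, was 3.56, 3.68 and 3.64 in sham, 3.50, 3.37 and 3.38 in MCT and 3.52, 3.50 and 3.50 in MCT + NI mice. Sham values lay above all others in both, with differences of -0.20 for Ccl4 (limma adjusted p = 0.105) and -0.21 for Ccl28 (0.125) in MCT against sham mice, and both genes lay below the median row. Without the intensity trend in limma Ccl4 had an adjusted p of 0.0476. Ccr10 was dim, 3.48 to 3.84 in the 9 mice.

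The other 32 chemokine genes had no p under 0.05 in any comparison, and their differences ranged from -0.34 to 0.43. Among them were constitutive ligands at bright levels. Cxcl12, which holds stem cells and supports vessels through Cxcr4, was 7.89, 7.72 and 7.86 in sham, 8.00, 8.16 and 7.85 in MCT and 8.10, 7.88 and 8.04 in MCT + NI mice, a difference of 0.18 (-0.02 to 0.38) between MCT and sham. Cxcr4 was 6.03, 6.29 and 6.12 in sham, 6.26, 6.44 and 6.05 in MCT and 6.22, 6.22 and 6.24 in MCT + NI mice. Cxcl14, a ligand of epithelium and connective tissue, was 5.73 to 6.41 in sham, 6.13 to 6.42 in MCT and 5.99 to 6.86 in MCT + NI mice. The groups overlapped in all 3 genes. Of the 18 receptors 2 had an unadjusted p under 0.05 between MCT and sham mice, Ccr2 and Ccr1, against 19.7% of all genes. After adjustment in limma 0 receptors passed, against 6.26% of all genes. The median difference of the 18 receptors was 0.08, and 14 of them differed by less than 0.25.

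Genes that work with the chemokines were described from 6 lists, set beside the 4.65% higher and 1.61% lower of all genes after adjustment between MCT and sham mice. Of 22 genes of chemokine receptor signalling 3 rose, with a median difference of 0.20: the inhibitory G protein subunit Gnai2 (0.48, limma adjusted p = 0.000677), the subunit Gnb1 (0.30, 0.00708) and Dock2, the Rac activator by which leukocytes migrate (0.60, 0.0241). Of 14 genes that trim, scavenge or anchor chemokines 2 rose, Mmp2, a gelatinase that cleaves Ccl7 and Cxcl12 (1.19, adjusted p = 0.00138), and Adam10. Of 19 genes of NF-kB and inflammatory inducers 5 rose, among them Relb (0.61, 0.0170), Rela (0.31, 0.0186), the tumour necrosis factor receptor Tnfrsf1a (0.46, 0.0182) and Tlr4 (0.73, 0.0335). At an unadjusted limma p under 0.05, 8 of the 19 were higher and 2 lower. Ptgs2, the gene of COX-2, was 5.31, 6.03 and 6.28 in sham, 4.88, 5.04 and 5.56 in MCT and 5.21, 4.94 and 4.66 in MCT + NI mice. Of 5 atypical and decoy receptors 1 rose, Ackr2, which takes up and degrades inflammatory CC ligands. It was 4.51, 4.52 and 4.45 in sham, 5.18, 4.94 and 5.07 in MCT and 4.89, 4.97 and 4.96 in MCT + NI mice, all injected mice above all sham mice (0.57 in MCT mice, adjusted p = 0.00331, and 0.45 in MCT + NI mice, 0.0111). Gpr182 of the same list was 6.58, 7.37 and 7.48 in sham, 5.97, 6.10 and 6.78 in MCT and 6.29, 5.91 and 5.91 in MCT + NI mice. Against sham mice Gpr182 was lower at an unadjusted limma p under 0.05 in MCT mice, and it fell after adjustment in MCT + NI mice. Within each injected group Gpr182 and Ptgs2 were highest in the mouse with high atrial markers, MCT mouse 644 and MCT + NI mouse 615. The part of atrial tissue in the values of these genes was not tested. Of 6 chemokine genes outside the symbol rule 3 rose, Mif (0.21), Cmtm3 (0.91) and Cmtm7 (0.45). Between MCT + NI and MCT mice 0 genes of these lists passed in limma, and at an unadjusted p under 0.05 there were 2 lower in receptor signalling, 1 lower in NF-kB and 1 higher among the chemokine genes outside the rule.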

How the data were processed

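RNA of 9 right ventricles, 1 array per mouse, was used. The authors processed the scans by robust multi-array analysis (RMA), named without a version in the submitters' processing notes, and deposited log2 intensities, which were used without further normalization. The labels and the methods differ on the RNA kit and on the weeks of diet before injection. The methods tell of probe sets remapped to 1 per gene, but the rows used here are the array maker's own probe sets. Scan batches are not given in the sources used here. Of 35556 rows 21218 had 1 gene in the platform annotation, and rows with several (1881) or none (12457) were left out. The brightest probe set stood for each of 1386 genes with several. limma 3.58.1 in R 4.3.3 (intensity trend, two-sided p) fitted 18820 genes without a filter on low values, and the fit was tested on simulated data. The replicates are separate mice. Genes were named when the adjusted p was under 0.05 in any comparison, then by unadjusted p up to 20, with their receptor or ligand partners; Ccl5, Ccl11, Cxcl12, Cxcr4, Cxcl11 and Cxcl14 were added after values were seen. Of 218 symbols on 22 lists 204 were measured. The members and the lists were chosen with earlier results of these data known. Motifs were searched in 250 bases of RefSeq promoter. Alternatives changed probe sets, filter, rows, limma settings, scaling, the atrial covariate and the mice used.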

Additional observations from a re-analysis of the deposited data

How the results depend on the processing

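Under 20 alternatives per comparison, 9 of which left out 1 mouse, the number of chemokine genes past the adjusted threshold was 4 for MCT against sham with all mice. It was 2 with genes at or above the median row alone, because Ccl24 and Ccl8 lie below it and were not tested, and 2 to 5 when 1 mouse was left out, with 2 without sham mouse 624. For MCT + NI against MCT it was 0 in every alternative. For MCT + NI against sham it was 3, and 1 to 4 when 1 mouse was left out, with 1 without MCT + NI mouse 615. With the atrial marker mean as a covariate the adjusted counts in the same order were 3, 0 and 2. The numbers at an unadjusted limma p under 0.05 were then 6 for MCT against sham and 4 for MCT + NI against sham, where both were 15. Over all genes the adjusted count for MCT against sham was 506 with this covariate and 1179 without it, beside 3 and 4 chemokine genes. The unadjusted number over all genes was not counted for the alternatives. Without sham mouse 620 the unadjusted number for MCT + NI against sham was 7. The cause of these changes was not tested. Leaving out both MCT mouse 644 and MCT + NI mouse 615 gave adjusted counts of 4, 0 and 2. Of 706 single-gene results, 672 kept their direction and side of the threshold, 25 lost the call, 8 gained it and 1 changed sign, Ccl8 between MCT + NI and MCT mice which was -0.27 and ranged from -0.648 to 0.00614 when 1 mouse was left out, the latter without MCT + NI mouse 617. No paired analysis was possible because the groups share no mouse numbers. Signal near the background limits what the 32 dim genes can show.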

Other observations

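Further chemokine symbols occur only on rows shared with other genes, which were left out of the tests. The row of Ccl21a, Ccl21b, Ccl21c and Gm1987, ligands of Ccr7 made by lymphatic endothelium, appears 4 times with identical values, 8.09, 7.94 and 7.71 in sham, 8.32, 8.00 and 8.32 in MCT and 8.25, 8.16 and 7.98 in MCT + NI mice. The brighter rows of Ccl27a, a ligand of Ccr10, were lower in all injected mice than in all sham mice. One of them was 7.70, 7.74 and 7.69 in sham, 7.38, 7.36 and 7.47 in MCT and 7.38, 7.31 and 7.34 in MCT + NI mice, a difference of -0.30 between MCT and sham. These rows also match Gm13306 and related copies, whose signal cannot be told apart from that of Ccl27a.

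Markers of the vessel wall and of connective tissue were counted as well. Between MCT and sham mice 5 of 9 smooth muscle and pericyte markers rose, with a median difference of 0.47, and 4 of 9 fibroblast markers rose, with a median of 0.30. Of 10 endothelial markers 3 rose and 1 fell, with a median of 0.06, and of 5 lymphatic endothelial markers 1 rose. Of 9 ventricular cardiomyocyte markers 1 fell (Ryr2, by 0.17). The part of these cells in the chemokine values was not tested. Of 8 markers of mast cells and eosinophils 1 rose, Kit, by 0.64, and the median difference of the list was -0.15. Of 7 B cell, 8 NK cell, 7 dendritic cell and 5 lymph node or thymus stroma markers 0 passed after adjustment in limma, and at an unadjusted p under 0.05 there were 0, 1, 2 and 0.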
